A study of Homo sapiens with 4 samples.

Results

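The TGF-beta and bone morphogenetic protein (BMP) signalling genes described here were BAMBI, the ligands TGFB1 and TGFB2, and the receptors TGFBR1 and TGFBR2. With them were the signal transducer SMAD3, the inhibitory SMAD6 and SMAD7, and the BMP target genes ID1 and ID3. All of these genes were taken by gene symbol, and the set was chosen with earlier results of these data known. They make up 10 of the 58735 genes listed. All 10 had enough reads to be tested. The data came from HaCAT, an immortalized human keratinocyte cell line, in which poly(A) RNA was sequenced after transfection with small interfering RNA (siRNA). The siControl group (2 libraries) had the genotype WT and a normal control siRNA, and the siALKBH5 group (2 libraries) had an siRNA that knocks down ALKBH5, an enzyme that removes the methyl mark N6-methyladenosine (m6A) from RNA. All 4 libraries came from this 1 line, transfected with lipofectamine, so the data describe a transient knockdown in cultured cells. The study asked how ALKBH5 acts in keratinocytes during wound closure, and the comparison here gives the RNA level of each signalling gene with and without the knockdown.

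TGF-beta ligands bring together a type II receptor (TGFBR2) and a type I receptor (TGFBR1), which phosphorylates SMAD2 and SMAD3. BMP ligands use related receptors and SMAD1, SMAD5 and SMAD9, and both kinds of SMAD complex enter the nucleus with SMAD4. SMAD6 and SMAD7 are inhibitory SMADs that act as feedback brakes, and BAMBI is a membrane pseudoreceptor that resembles a type I receptor but lacks its kinase domain. In epidermis, TGF-beta is known for restraining keratinocyte division and for promoting migration and matrix production in wounds.

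The libraries held 16017502 and 17877181 gene counts in siControl and 18837807 and 16618169 in siALKBH5. For ALKBH5 itself, counts of 1512 and 1576 in siControl stood against 956 and 816 in siALKBH5, so 55.5% of its level remained as CPM, the count scaled to library size (log2 fold change -0.85, SE 0.05, adjusted p = 6.4e-15 by the edgeR quasi-likelihood test). The labels do not say whether the libraries of a group came from separate cultures, so p-values measure the spread between these libraries, which may be technical. All 11 keratinocyte markers examined were expressed, and their summed level was 18269 to 18683 CPM in siControl and 23917 to 23985 CPM in siALKBH5, with 3 of the markers higher and 5 of them lower (adjusted p under 0.05). Of the 8 fibroblast markers, COL1A2, PDGFRA, PDGFRB and THY1 had no count in any library. The summed level was 21.9 to 22.8 CPM in siControl and 18.7 to 19.1 CPM in siALKBH5. COL1A1 was the highest of these markers, with a mean of 16.9 CPM in siControl. Of the 3 fibroblast markers tested, 0 were higher and 2 were lower (adjusted p under 0.05). The marker counts stand beside 19.3% higher and 17.3% lower over all genes tested. The part of these marker shifts in the results below was not tested.

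Of the 10 genes, 6 were lower in siALKBH5 at an adjusted p under 0.05 (BAMBI, SMAD3, SMAD6, SMAD7, ID1 and ID3), 0 were higher and 4 did not pass (TGFB1, TGFB2, TGFBR1 and TGFBR2). Over all 15075 genes tested, 17.3% were lower and 19.3% were higher by the same rule. Passing it did not require a large change in well-expressed genes. In either direction, 79.2% of all genes tested changed at least as much as ID1, and 69.9% as much as SMAD3. The shares were 56.3% for ID3, 45.5% for SMAD7, 42.3% for SMAD6 and 1.94% for BAMBI. The median log2 fold change was -0.093 over the 10 genes and -0.0081 over all genes tested. BAMBI was the 1 gene of the 10 whose log2 fold change was also at or below -1, beside 1.3% of all genes tested. BAMBI may have been picked from these same libraries by such a change, so passing this rule is not taken as independent evidence. The CPM of the 2 groups did not overlap in 9 of the 10 genes, the exception being TGFBR1, and in 66.3% of all genes tested. The genes were tested on read counts, and fewer transcripts per cell could not be told apart from fewer cells that express a gene.

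**Figure D1:**
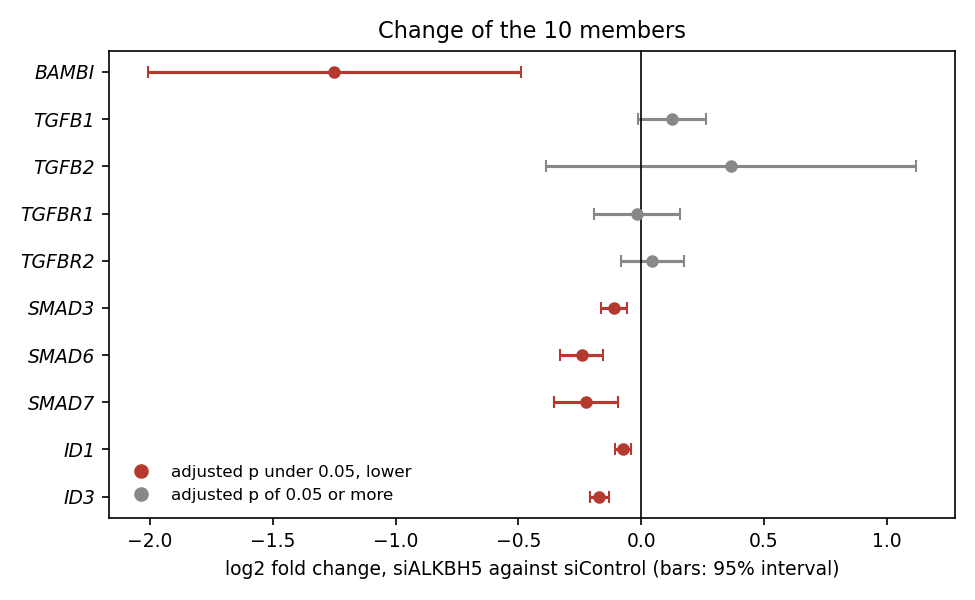
Log2 fold change of each of the 10 genes in siALKBH5 against siControl (2 libraries each), with its 95% interval as a bar. Red points (BAMBI, SMAD3, SMAD6, SMAD7, ID1 and ID3) had an adjusted p under 0.05, and the intervals of the 4 grey points, the ligands and receptors, cross 0.

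Levels were compared between genes as FPKM, the fragment level per gene length and library size, computed with the gene lengths of the deposited tables. In siControl the order of the mean levels was ID1 (1982 FPKM), ID3 (647), SMAD3 (38.4), SMAD6 (13.9), TGFB1 (11.8), SMAD7 and TGFBR2 (both 9.45), TGFBR1 (3.51), BAMBI (0.950) and TGFB2 (0.224). SMAD7 and TGFBR2 were the only neighbours in this order whose libraries overlapped. The 10 genes therefore spanned from abundant ID transcripts to BAMBI and TGFB2, which lay near the limit of what these libraries measure. In siALKBH5 TGFB1 (12.8 FPKM) stood above SMAD6 (11.7), and TGFBR2 (9.74) stood above SMAD7 (8.09). None of the neighbours in the siALKBH5 order overlapped.

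**Figure D2:**
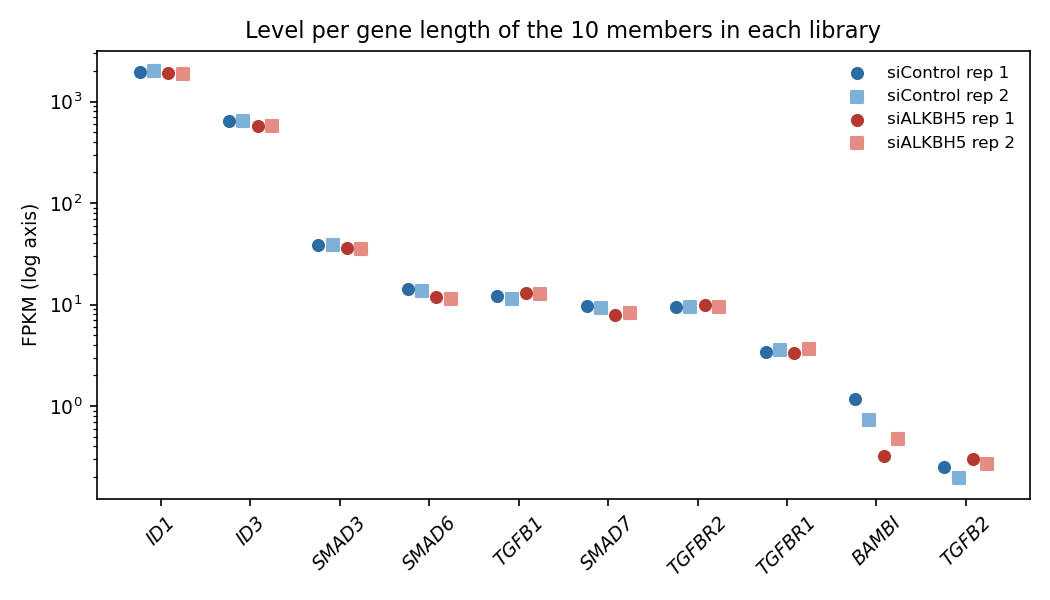
FPKM (log axis) of the 10 genes in each of the 4 libraries, with siControl in blue, siALKBH5 in red, circles for replicate 1 and squares for replicate 2. Levels run from 1994 FPKM for ID1 in siControl replicate 2 to under 1 FPKM for BAMBI in siALKBH5 and for TGFB2, and the groups are most widely separated for BAMBI.

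BAMBI (ENSG00000095739, hg38 chr10:28677342-28682939, plus strand, 3 exons) was counted 44 and 30 times in siControl against 14 and 18 times in siALKBH5. These equal 2.73 and 1.67 CPM in siControl and 0.750 and 1.09 CPM in siALKBH5. Both knockdown libraries thus lay below both control libraries. The log2 fold change was -1.25 (SE 0.37, 95% interval -2.01 to -0.49, adjusted p = 0.0081), and the mean level in siALKBH5 was 41.9% of that in siControl. BAMBI is in the study's list of primers beside candidate genes picked from these same libraries. Its direction, size of change and adjusted p here are therefore not taken as independent evidence. The siALKBH5 to siControl ratio of its counts, scaled to library size, was 27.5% between the libraries of replicate 1 (95% exact interval 13.9% to 51.0%) and 65.6% between those of replicate 2 (34.4% to 122%), intervals that cover counting error only. The interval of replicate 2 alone therefore included equal levels in both groups. Without siControl replicate 1 the log2 fold change was -0.86 (adjusted p = 0.20), and without siALKBH5 replicate 1 it was -0.99 (adjusted p = 0.088). DESeq2 gave -1.25 with an adjusted p of 0.057.

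**Figure D3:**
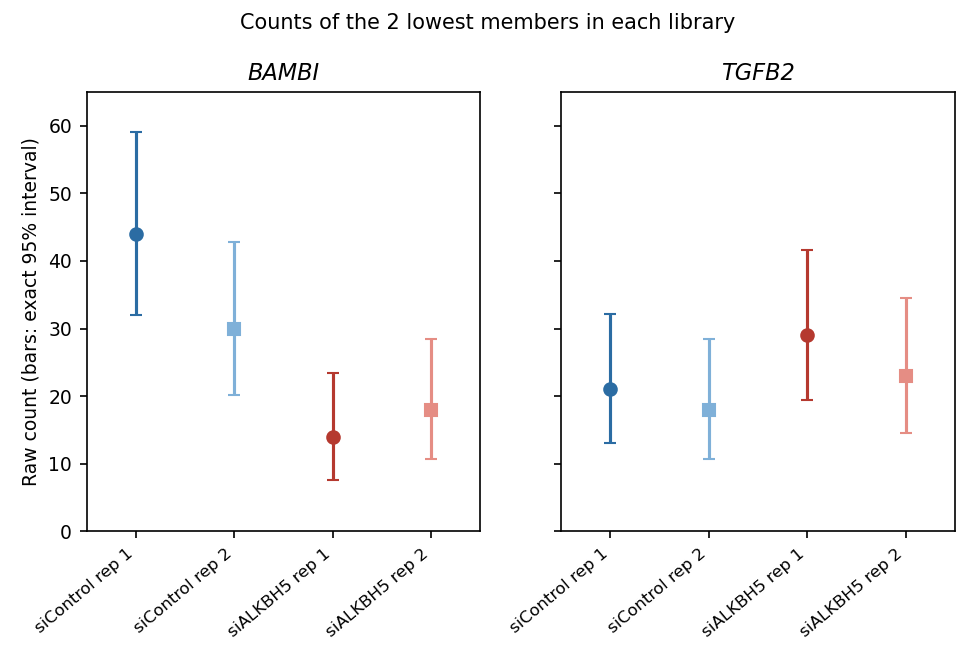
Raw counts of BAMBI and TGFB2, the lowest of the 10 genes by level, in each library, with exact 95% Poisson intervals that cover counting error only. BAMBI has 44 and 30 counts in siControl against 14 and 18 in siALKBH5. For BAMBI the interval of siControl replicate 2 overlaps those of both siALKBH5 libraries, and all intervals of TGFB2 overlap.

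The promoter of BAMBI is shown because BAMBI changed most of the 10 genes. SMAD proteins are known to bind the palindrome GTCTAGAC and, in BMP-responsive promoters, GC-rich elements such as GGCGCC, and TATAAA is the core of the TATA box. These letters were searched on both strands in the 250 bases before each RefSeq transcript start (GRCh38.p14). All 10 genes matched, with 24 windows, and 35116 windows of all genes were searched in the same way. GTCTAGAC was in 0.182% of all windows, GGCGCC in 16.4% and TATAAA in 10.7%. GGCGCC was not particular to BAMBI among the 10 genes, as a window of TGFBR1 and a window of SMAD3 each held 2 copies. The BAMBI window, at chr10:28677271-28677520 on the plus strand, follows with its 3 copies of GGCGCC in capitals:
BAMBI: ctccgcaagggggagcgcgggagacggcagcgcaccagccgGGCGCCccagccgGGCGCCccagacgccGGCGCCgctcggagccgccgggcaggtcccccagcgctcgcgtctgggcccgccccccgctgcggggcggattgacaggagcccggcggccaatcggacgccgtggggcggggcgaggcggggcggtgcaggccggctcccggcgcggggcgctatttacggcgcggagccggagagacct
Its GC content was 81.2%, against a median of 58% over all windows, and it held neither GTCTAGAC nor TATAAA. A match is a description of the letters and no evidence that a protein binds there. The deposited tables and RefSeq place the starts at different bases, so the gene coordinates of BAMBI, SMAD6 and ID1 begin inside the windows printed here, and the window of ID3 lies wholly within its gene.

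The ligands did not pass the test. TGFB1 (ENSG00000105329, chr19:41301587-41353911, minus strand, 7 exons), the main TGF-beta isoform of many tissues, had 39.2 and 36.9 CPM in siControl and 42.1 and 40.7 CPM in siALKBH5. Its knockdown libraries were both above its control libraries, with a log2 fold change of 0.12 (SE 0.07, 95% interval -0.014 to 0.26, adjusted p = 0.16). TGFB1 overlaps HNRNPUL1, CCDC97 and TMEM91 on the opposite strand. The protocol names no step that marks strand, so reads from the shared stretch cannot be assigned with certainty, and HNRNPUL1 had counts of 2306 and 2522 in siControl against 3102 and 2651 in siALKBH5. TGFB2 (ENSG00000092969, chr1:218346235-218444619, plus strand, 8 exons), a second isoform, had counts of 21 and 18 in siControl against 29 and 23 in siALKBH5. Its log2 fold change was 0.37 (SE 0.37, adjusted p = 0.48), and the 95% interval of -0.39 to 1.12 left room for a decrease as well as for an increase past 1. Leaving out 1 library moved the log2 fold change to between 0.18 (without siControl replicate 2) and 0.56 (without siControl replicate 1), and it passed in none of these fits. The FPKM ratio of TGFB2 to TGFB1 was 0.0209 and 0.0170 in siControl and 0.0232 and 0.0216 in siALKBH5, so TGFB1 was by far the more abundant of these ligands in every library.

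The receptors differed least. TGFBR1 (ENSG00000106799, chr9:99104038-99154192, plus strand, 9 exons), the type I receptor kinase, had 23.5 and 24.6 CPM in siControl and 22.9 and 24.7 CPM in siALKBH5. The groups overlapped, and the log2 fold change was -0.02 (SE 0.09, 95% interval -0.19 to 0.16, adjusted p = 0.91). TGFBR2 (ENSG00000163513, chr3:30606502-30694142, plus strand, 7 exons), the type II receptor that binds the ligand first, had 44.2 and 44.7 CPM in siControl and 46.8 and 44.8 CPM in siALKBH5. Its log2 fold change was 0.05 (SE 0.06, 95% interval -0.08 to 0.17, adjusted p = 0.62). Over both receptors, the intervals ran from -0.19 to 0.17 on the log2 scale. The FPKM ratio of TGFBR1 to TGFBR2 was 0.365 and 0.378 in siControl and 0.337 and 0.378 in siALKBH5, with the groups overlapping. The ratio of the pseudoreceptor BAMBI to TGFBR1 was 0.344 and 0.201 in siControl and 0.0967 and 0.131 in siALKBH5, with both knockdown libraries below both control libraries. As TGFBR1 hardly changed, this ratio restates the change of BAMBI and is no further evidence. With 2 libraries against 2, an exact permutation test of such a ratio cannot give a two-sided p below 0.333.

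All 3 SMAD genes of the set were lower. SMAD3 (ENSG00000166949, chr15:67063763-67195195, plus strand, 9 exons), which carries the TGF-beta signal to the nucleus, had 352 and 348 CPM in siControl and 326 and 323 CPM in siALKBH5 (log2 fold change -0.11, SE 0.03, adjusted p = 0.0012). The knockdown mean was 92.6% of the control mean, a small difference that exceeded the narrow spread within each group. SMAD6 (ENSG00000137834, chr15:66702228-66782848, plus strand, 4 exons), the inhibitor that acts mainly on BMP signals, had 121 and 117 CPM in siControl and 103 and 98.1 CPM in siALKBH5 (log2 fold change -0.24, SE 0.04, adjusted p = 2.1e-05). SMAD7 (ENSG00000101665, chr18:48919853-48952052, minus strand, 4 exons), the inhibitor that blocks the TGF-beta receptor, had 48.2 and 46.9 CPM in siControl and 39.6 and 41.8 CPM in siALKBH5 (log2 fold change -0.23, SE 0.06, adjusted p = 0.0060). The knockdown means were 84.4% of control for SMAD6 and 85.6% for SMAD7. The call on SMAD7 was lost without siALKBH5 replicate 1 (log2 fold change -0.18, adjusted p = 0.081) and in DESeq2 (-0.22, adjusted p = 0.055). The FPKM ratio of SMAD7 to SMAD3 was 0.248 and 0.244 in siControl and 0.220 and 0.235 in siALKBH5, and the groups did not overlap. The ratio of SMAD7 to SMAD6 was 0.676 and 0.684 in siControl and 0.656 and 0.725 in siALKBH5, and the siControl values lay between those of siALKBH5.

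The promoter of SMAD6 is shown because it was the 1 gene of the 10 with the SMAD palindrome in a window. It lies at chr15:66701986-66702235 on the plus strand, and the capitals mark GTCTAGAC, which begins 12 bases before the RefSeq start:
SMAD6: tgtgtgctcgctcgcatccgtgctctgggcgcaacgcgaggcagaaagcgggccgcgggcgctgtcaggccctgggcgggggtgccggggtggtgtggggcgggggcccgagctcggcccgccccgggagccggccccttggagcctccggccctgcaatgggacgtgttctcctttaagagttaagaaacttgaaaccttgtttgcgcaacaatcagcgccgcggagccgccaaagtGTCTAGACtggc

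The ID genes, which encode helix-loop-helix proteins that block differentiation factors and are classical targets of BMP signalling, were both lower by small amounts. ID1 (ENSG00000125968, chr20:31605283-31606515, plus strand) had 2428 and 2459 CPM in siControl and 2334 and 2306 CPM in siALKBH5. It ranked 26 among all genes by mean CPM, and its counts (39125 and 44245 in siControl, 43601 and 37947 in siALKBH5) made small differences measurable (log2 fold change -0.07, SE 0.02, adjusted p = 3.9e-04). ID3 (ENSG00000117318, chr1:23557918-23559794, minus strand, 3 exons) had 1158 and 1167 CPM in siControl and 1037 and 1028 CPM in siALKBH5 (log2 fold change -0.17, SE 0.02, adjusted p = 7.4e-09). The knockdown means were 94.9% of control for ID1 and 88.8% for ID3. The FPKM ratio of ID1 to ID3 was 3.06 and 3.07 in siControl and 3.28 and 3.27 in siALKBH5, so ID3 was lower relative to ID1 in both knockdown libraries.

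The windows of ID1 and ID3 are shown because these were the most abundant of the 10 genes and differed in the letters found. In ID1, at chr20:31605039-31605288 on the plus strand, capitals mark 2 overlapping copies of TATAAA, 1 on each strand. In ID3, at chr1:23559502-23559751 on the minus strand, none of the 3 motifs was found, and the window is in lower case throughout:
ID1: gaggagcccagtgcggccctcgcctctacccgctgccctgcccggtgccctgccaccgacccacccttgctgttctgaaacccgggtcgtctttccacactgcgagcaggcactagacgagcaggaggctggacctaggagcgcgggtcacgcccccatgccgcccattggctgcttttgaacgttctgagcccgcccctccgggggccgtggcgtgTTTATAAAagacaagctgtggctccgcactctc
ID3: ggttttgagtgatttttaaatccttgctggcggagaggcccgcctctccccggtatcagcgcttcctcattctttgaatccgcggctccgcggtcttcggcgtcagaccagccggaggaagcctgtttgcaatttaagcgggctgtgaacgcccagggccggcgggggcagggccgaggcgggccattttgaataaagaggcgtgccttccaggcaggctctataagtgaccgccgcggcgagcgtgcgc

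The other members of the SMAD and ID families were also read from the fit across all genes. Of all 8 SMAD genes, 6 were lower and 0 were higher, with a median log2 fold change of -0.23. The shares over all genes tested were 17.3% lower and 19.3% higher, with a median of -0.0081. The 8 include SMAD3, SMAD6 and SMAD7, already given above, and of the 5 other SMAD genes 3 were lower. SMAD4, the shared partner of both pathways, had 77.8 and 83.0 CPM in siControl and 63.8 and 59.1 CPM in siALKBH5 (log2 fold change -0.39, SE 0.05, adjusted p = 3.6e-07). SMAD5, a BMP transducer, had a log2 fold change of -0.21 (SE 0.05, adjusted p = 3.1e-04), and SMAD2, the partner of SMAD3 in TGF-beta signalling, one of -0.16 (SE 0.04, adjusted p = 0.0023). The lower SMAD genes thus included transducers of both pathways as well as the inhibitors. SMAD1 (-0.25, adjusted p = 0.064) and SMAD9 (-0.67, adjusted p = 0.18) did not pass. Of the 4 ID genes, all 4 were lower, with a median log2 fold change of -0.27, to be read against the same shares over all genes. ID2 had 136 and 129 CPM in siControl and 94.1 and 92.1 CPM in siALKBH5 (log2 fold change -0.51, SE 0.04, adjusted p = 7.8e-12), and ID4 had 57.3 and 55.1 CPM against 44.5 and 42.1 CPM (-0.37, SE 0.06, adjusted p = 8.3e-06). ID2 and ID4 thus had the larger fitted decreases and ID1 and ID3 the higher levels, a difference between the genes that was not tested.

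**Figure D4:**
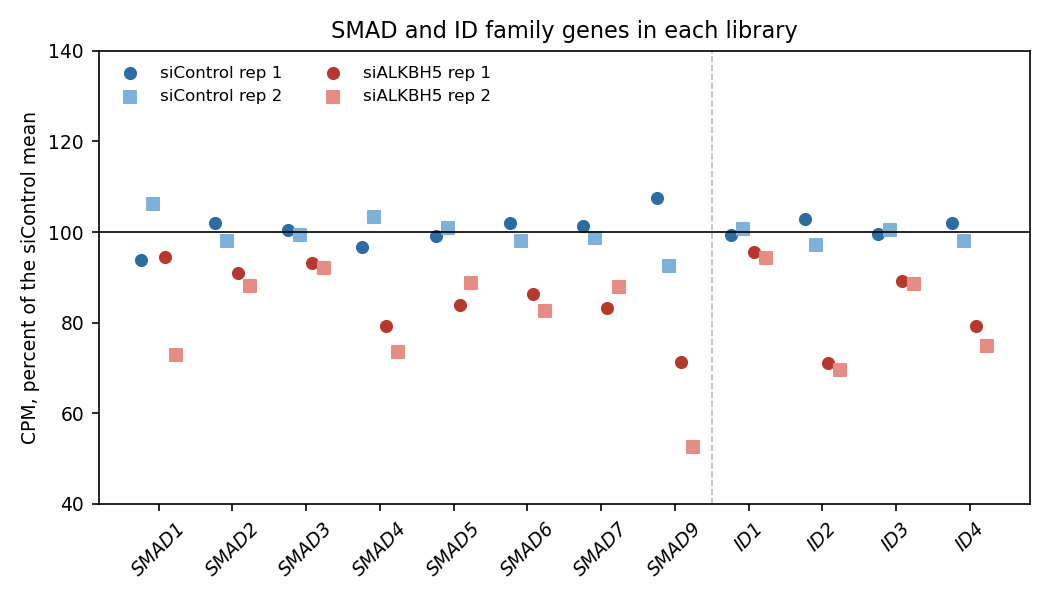
CPM of each SMAD and ID gene in each library as a percent of the siControl mean, with siControl in blue, siALKBH5 in red, circles for replicate 1 and squares for replicate 2. All siALKBH5 points lie below 100%, from 95.5% for ID1 to 52.6% for SMAD9, and only in SMAD1 do the groups overlap.

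Beyond the 10 genes, 97 other genes of these pathways were listed in 8 groups, and 74 of them could be tested. The other SMAD genes, ID2 and ID4, already given above, are among them. Of the 74, 14 were higher (18.9%) and 20 were lower (27.0%), with a median log2 fold change of -0.10. These shares stand beside 19.3% and 17.3% over all genes tested. Only INHBA and LRRC32 also changed by 1 or more on the log2 scale, and both were higher. LRRC32 reached the count needed for testing only in siALKBH5, the group where it was high. THBS1, SKIL, PMEPA1 and SMAD9 stood in more than 1 group and were counted once in these totals.

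Among the 9 other ligands tested, 1 was higher (11.1%) and 1 was lower (11.1%), against 19.3% and 17.3% of all genes tested. INHBA, the activin A subunit, had counts of 80 and 77 in siControl against 186 and 171 in siALKBH5 (log2 fold change 1.14, SE 0.16, adjusted p = 4.0e-07). BMP2, a BMP ligand of skin, had 241 and 294 counts against 255 and 193 (-0.30, SE 0.12, adjusted p = 0.042), and its call was lost without siControl replicate 2 (-0.23, adjusted p = 0.25), without siALKBH5 replicate 2 (-0.20, adjusted p = 0.29) and in DESeq2 (adjusted p = 0.18). Of the 9 other receptors tested, 0 were higher and 2 were lower (22.2%), beside the same shares over all genes. The lower receptors were BMPR1A (-0.19, SE 0.06, adjusted p = 0.020) and BMPR2 (-0.18, SE 0.05, adjusted p = 0.0024), which form the type I and type II parts of a BMP receptor. Without siControl replicate 2, neither passed (-0.10, adjusted p = 0.41 for BMPR1A and -0.14, adjusted p = 0.068 for BMPR2), and without siALKBH5 replicate 2 BMPR1A did not pass (-0.17, adjusted p = 0.089).

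Of the 16 extracellular antagonists listed, many of which can bind ligands before they reach a receptor, 6 could be tested and 10 could not. Of the 6 tested, 2 were higher (33.3%) and 3 were lower (50%), against 19.3% and 17.3% of all genes tested. FST, the follistatin that binds activins, had counts of 122 and 118 in siControl against 227 and 198 in siALKBH5 (log2 fold change 0.78, SE 0.14, adjusted p = 2.5e-05), and the related FSTL3 rose by 0.27 (SE 0.07, adjusted p = 0.0031). Activin subunit and follistatin RNA were thus both higher in the knockdown libraries. FSTL1 (-0.48, adjusted p = 0.0054), the BMP-binding protein TWSG1 (-0.33, adjusted p = 0.0078) and CRIM1 (-0.26, adjusted p = 8.5e-04) were lower. Each of these 3 calls was lost when a library was left out. The log2 fold change of FSTL1 was -0.27 without siALKBH5 replicate 2 (adjusted p = 0.16) and -0.75 without siALKBH5 replicate 1 (adjusted p = 5.7e-05). That of TWSG1 was -0.28 without siControl replicate 1 (adjusted p = 0.074) and -0.21 without siALKBH5 replicate 1 (adjusted p = 0.17), and that of CRIM1 was -0.19 without siControl replicate 2 (adjusted p = 0.051).

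Among the 10 genes of ligand latency and activation that were tested, 3 were higher (30%) and 1 was lower (10%), against 19.3% and 17.3% of all genes tested. THBS1, the thrombospondin that can release active TGF-beta, had counts of 1204 and 1392 in siControl against 2297 and 2028 in siALKBH5 (log2 fold change 0.69, SE 0.04, adjusted p = 6.8e-15). FURIN, a protease that cuts the ligand precursors, rose by 0.23 (SE 0.04, adjusted p = 6.3e-06). LRRC32, a surface protein that holds latent TGF-beta, had counts of 0 and 2 in siControl against 30 and 28 in siALKBH5, and was named after its values were seen because its mean level was under 1 CPM. DESeq2 gave LRRC32 no adjusted p (log2 fold change 4.83, SE 1.18), so it is not among the genes that DESeq2 called. The ratio of its summed counts, scaled to library size, was 28.2 (95% exact interval 7.45 to 238, counting error only). LRRC32 reached the count needed for testing only in siALKBH5, the group where it was high. Its call and this ratio rest on the same counts, so the ratio is no further evidence. The integrin subunit ITGAV was lower (-0.15, adjusted p = 0.0062), but not without siControl replicate 2 (-0.11, adjusted p = 0.16).

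Of the 14 intracellular regulators tested, 1 was higher (7.14%) and 4 were lower (28.6%), against 19.3% and 17.3% of all genes tested, and 9 did not pass. SKIL, a nuclear repressor of SMADs that TGF-beta induces, had 47.8 and 46.1 CPM in siControl and 32.7 and 35.4 CPM in siALKBH5 (log2 fold change -0.46, SE 0.07, adjusted p = 1.6e-06). PMEPA1, a feedback inhibitor of SMAD activation, was lower by a similar amount (-0.41, SE 0.09, adjusted p = 2.2e-04), and so was PPM1A, a phosphatase that acts on SMADs (-0.33, SE 0.06, adjusted p = 1.0e-05). FKBP1A, which binds the type I receptor, was higher (0.16, SE 0.03, adjusted p = 2.4e-05).

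Of the 16 TGF-beta target genes tested, 7 were higher (43.8%) and 5 were lower (31.2%), against 19.3% and 17.3% of all genes tested, with a median log2 fold change of 0.02. The matrix gene FN1 had counts of 112 and 152 in siControl against 247 and 199 in siALKBH5 (log2 fold change 0.71, SE 0.14, adjusted p = 7.8e-05). THBS1 was among the higher targets as well. The lower targets were led by the feedback genes SKIL and PMEPA1 and by CDKN2B, a cell cycle inhibitor (-0.37, SE 0.06, adjusted p = 9.4e-06). CDKN1A, another cell cycle inhibitor on the same list, was higher (0.27, SE 0.03, adjusted p = 3.0e-08), and is named after its values were seen. Of the 9 other BMP target genes tested, 1 was higher (11.1%) and 3 were lower (33.3%), with a median of -0.28. DLX5 was higher (0.42, SE 0.10, adjusted p = 9.0e-04), and GATA3 was lower beside ID2 and ID4 (-0.16, SE 0.06, adjusted p = 0.030). The call on GATA3 was lost without siControl replicate 1 (-0.12, adjusted p = 0.25) and without siALKBH5 replicate 1 (-0.13, adjusted p = 0.18).

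**Figure D5:**
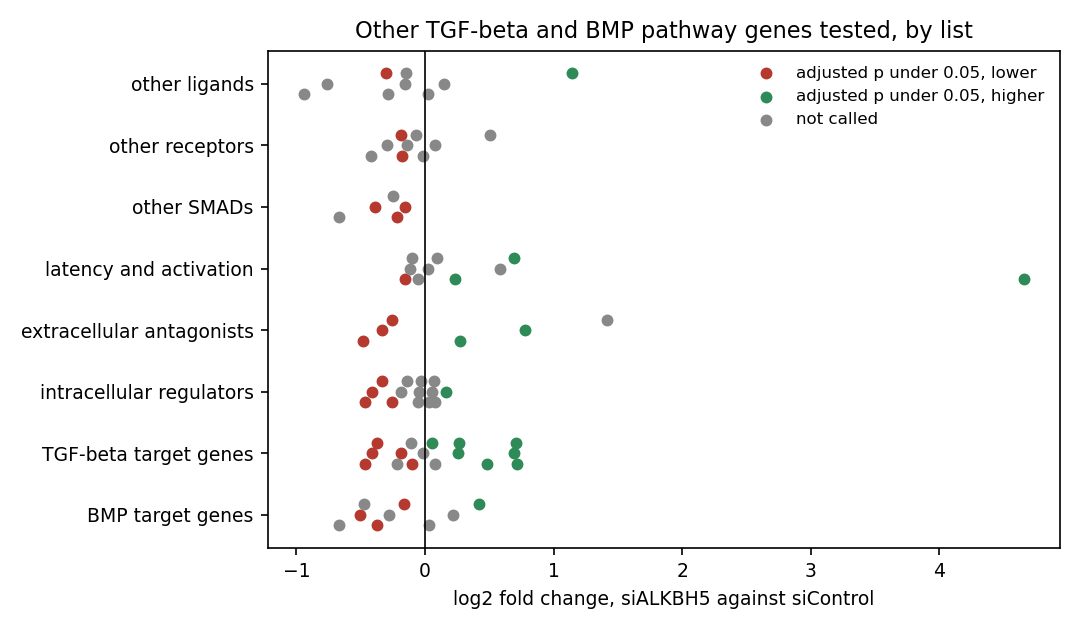
Log2 fold change of every tested gene of the 8 pathway groups, with red for lower and green for higher at an adjusted p under 0.05 and grey for the rest. The other SMADs all lie below 0, the TGF-beta target genes spread to both sides, and the point furthest right is LRRC32, which rests on 0 and 2 counts in siControl.

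The genes whose pattern over the 4 libraries was most like that of BAMBI were sought among 2616 tested genes with a mean CPM within 2-fold of its own, by the distance between log2 CPM centred on each gene's mean. They were DYNLRB2 (distance 0.157), AL121895.1 (0.217), SELENBP1 (0.244), CDH19 (0.244) and AL157935.1 (0.256). DYNLRB2 had counts of 25 and 16 in siControl against 8 and 9 in siALKBH5, and SELENBP1 had 73 and 60 against 29 and 34. These genes shared with BAMBI a higher count in siControl replicate 1 than in replicate 2. As they were picked for their likeness, this and their lower counts in siALKBH5 follow from the choice. The likeness is over 4 libraries only, at low counts. AL121895.1 and AL157935.1 are antisense genes, whose reads cannot be told apart from those of their partners without strand.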

How the data were processed

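Poly(A) RNA of HaCAT cells was sequenced in 2 siControl and 2 siALKBH5 libraries. According to the submitters' processing notes, the authors used CASAVA, HISAT2 (2.0.5), featureCounts (1.5.0-p3) and DESeq2 (1.20.0) with build hg38, and the deposited tables give raw read counts per gene, 1 table per replicate number. The deposited gene length, as the authors gave it and in another unit (bases), was used for FPKM. The tables also hold FPKM columns and the authors' own fold changes and p-values, which were not used. Symbols, coordinates and gene lengths come from the tables, and exon numbers are those of the longest coding transcript in GENCODE.

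The 4 count columns were joined by gene. Genes were filtered with filterByExpr, scaled by TMM and tested with edgeR (4.0.16, R 4.3.3) by the quasi-likelihood test, with Benjamini-Hochberg adjustment over the 15075 genes that passed. CPM and FPKM used the TMM library sizes, and the procedure was tested on simulated data. DESeq2 (1.42.0) was an alternative. Counting intervals are exact and 95%. In each pathway list, up to 3 higher and 3 lower genes were named, by the size of the log2 fold change among those with an adjusted p under 0.05, a mean CPM of 1 or more and 1 direction in both replicate numbers. 1 gene that this rule names is not reported here. The 10 members and the lists were chosen with earlier results of these data known.

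As a check of the cell line, summed CPM in siControl and siALKBH5 was 2.72 to 3.23 and 3.27 to 3.95 for 6 melanocyte markers, 4.59 to 5.72 and 5.41 to 6.53 for 6 immune cell markers, and 32.5 and 35.0 to 35.5 for 4 endothelial markers. VWF was the highest of the endothelial markers, with a mean of 18.8 CPM in siControl.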

Additional observations from a re-analysis of the deposited data

How the results depend on the processing

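Of 100 planned refits of the 10 members, 93 kept direction and side of the threshold, 5 lost a call and 2 turned direction. The lost calls were those of BAMBI and SMAD7 given above, and the turned direction was that of TGFBR1, which never passed (0.018 without siControl replicate 2 and 0.040 without siALKBH5 replicate 1, within a range of -0.066 to 0.040). DESeq2 called 1431 genes lower in place of 2610, 13 pathway genes lower in place of 20, and 4 of the members (ID1, ID3, SMAD3 and SMAD6). It also lost BMPR1A (adjusted p = 0.12), TWSG1 and ITGAV (both 0.065) and GATA3 (0.16). Without the filter on low counts, BMP2 (0.065) and GATA3 (0.059) did not pass. The cause was not tested. With a log2 change of at least 1 as a further rule, 196 genes were lower, 244 were higher and 1 member was lower. Leaving out 1 library at a time gave 4 to 6 members lower and 0 higher, 1961 to 2124 genes lower and 2366 to 2528 higher, and 16 to 20 pathway genes lower. The ratio of SMAD7 to SMAD6, for which libraries were left out after the data were seen, changed by -0.051 to 0.092 on the log2 scale. The deviations of same-numbered libraries from their group means had r = 0.0337 over 15075 genes (across genes, which are not replicates), and the labels do not pair them. With a replicate block, 6 members were lower and 0 were higher, as were 2831 and 3091 of all genes, and no call on a member changed. BAMBI and TGFB2, at 14 to 44 counts, were limited by depth.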
